A study of Mus musculus with 4 samples.

Results

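The 6 genes described here, Mpo, Elane, Prtn3, Ctsg, Ms4a3 and Plac8, are known for their expression in immature cells of the granulocyte and monocyte lineage. Their expression was followed in adherent cells grown from mouse spleen. The members were the probe sets whose only gene symbol is 1 of these 6 names. Each gene had 1 probe set, so 6 of 45037 probe sets on the array, and 6 of 19761 genes with a symbol of their own, were members. The genes had been chosen by their levels and their SACC to control ratios on these same 4 arrays, so both are given below as a description and carry no test.

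Splenic adherent cells that build dense colonies (SACCs) were set against splenic adherent cells that had spread as a monolayer, the controls. All 4 samples came from C57BL/6J spleens, each cut into 6 pieces and cultured in RPMI 1640 medium with 5% fetal bovine serum. SACC replicate 1 had been moved to StemMedium, a serum-free medium made for mouse embryonic stem cells (ES medium), when colonies began to form, while SACC replicate 2, control replicate 1 and control replicate 2 are labelled as plain medium. Each sample was read on 1 Affymetrix array, and the labels state which control belongs to which SACC sample. This gives an ES pair, in which only SACC replicate 1 saw ES medium, and a plain pair, in which both samples had plain medium, so in the ES pair medium and cell form cannot be told apart. Whether the samples were separate cultures or animals is not stated, and the spread between arrays may be technical.

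Values are log2 expression as deposited. A ratio is the SACC value less the control value of its pair on that scale, so that 1 is a 2-fold higher level in SACC. The array medians lay between 4.34 and 4.59. No detection calls were used. A value below its array's median is therefore treated as dim, and a fold against it is uncertain. The cultures held RNA of blood and of stromal cells. Ptprc, the common leukocyte antigen, was at 9.2 and 8.63 on the SACC arrays against 11.28 and 10.67 on the control arrays of the ES and plain pairs, and the collagen chain Col1a1 was at 12.77 and 12.01 on the SACC arrays against 10.45 and 9.73 on the control arrays. In such bulk RNA, fewer cells of a type and less RNA per cell cannot be told apart.

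Primary, or azurophil, granules are the first granules that a developing neutrophil makes, at the promyelocyte stage. Their genes are transcribed mainly in that early window and the proteins are then stored, so mature neutrophils carry the proteins with little of the RNA. Myeloperoxidase, encoded by Mpo, makes hypochlorous acid from hydrogen peroxide. Neutrophil elastase (Elane), proteinase 3 (Prtn3) and cathepsin G (Ctsg) are serine proteases of the same granules. Ms4a3 encodes a small membrane protein found in granulocyte and monocyte progenitors. Plac8 encodes a small cysteine-rich protein that is abundant in myeloid cells, but it is also made by other cell types and is not a granule protein. The factors C/EBP, PU.1, MYB and RUNX are known to act on promoters of this group.

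The promoters of the 4 genes of granule enzymes are shown because these 4 RNAs were all highest in SACC and next highest in control of the plain pair. Ms4a3, which encodes no granule enzyme, was also highest in SACC and next highest in control of that pair. Its promoter is not printed. Elane and Prtn3 are neighbours on chromosome 10. Each sequence runs 5′ to 3′ on the gene's own strand, from 250 bases before to 50 bases after the RefSeq start (GRCm38.p6). Capitals mark GAGGAA, the core bound by PU.1 and other ETS factors, CAACNG, bound by MYB like its variant TAACNG, and the TATA box (TATAA), each searched on both strands.
Mpo, chr11:87793534-87793833, plus strand: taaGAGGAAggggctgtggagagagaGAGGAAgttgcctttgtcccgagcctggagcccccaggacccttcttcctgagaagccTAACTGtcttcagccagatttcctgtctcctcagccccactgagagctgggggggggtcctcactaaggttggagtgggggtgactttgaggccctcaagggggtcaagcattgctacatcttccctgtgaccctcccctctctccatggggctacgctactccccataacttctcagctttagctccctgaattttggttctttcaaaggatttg
Elane, chr10:79886062-79886361, plus strand: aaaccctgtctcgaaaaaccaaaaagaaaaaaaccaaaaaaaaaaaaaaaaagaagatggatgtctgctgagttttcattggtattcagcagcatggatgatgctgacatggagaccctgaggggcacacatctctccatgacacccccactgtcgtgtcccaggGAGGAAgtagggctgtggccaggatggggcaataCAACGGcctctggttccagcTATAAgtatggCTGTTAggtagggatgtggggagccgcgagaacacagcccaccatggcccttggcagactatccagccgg
Prtn3, chr10:79879417-79879716, plus strand: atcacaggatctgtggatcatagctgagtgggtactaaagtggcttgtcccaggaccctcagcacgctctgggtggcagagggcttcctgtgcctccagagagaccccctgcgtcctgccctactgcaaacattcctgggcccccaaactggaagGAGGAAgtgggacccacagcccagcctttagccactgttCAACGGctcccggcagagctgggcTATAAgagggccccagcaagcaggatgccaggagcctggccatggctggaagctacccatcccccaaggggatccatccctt
Ctsg, chr14:56102525-56102824, minus strand: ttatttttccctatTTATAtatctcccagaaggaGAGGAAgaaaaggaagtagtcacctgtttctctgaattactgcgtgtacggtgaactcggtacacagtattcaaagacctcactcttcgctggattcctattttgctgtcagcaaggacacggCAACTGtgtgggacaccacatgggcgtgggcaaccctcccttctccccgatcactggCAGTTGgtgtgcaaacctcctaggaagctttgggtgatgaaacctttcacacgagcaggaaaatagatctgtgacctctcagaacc

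Elane and Prtn3 held the same 3 matches in the same order. With the first transcribed base at 0, GAGGAA began at -85 in Elane and -95 in Prtn3, CAACGG at -51 and -56, and TATAA at -31 and -32. The Elane window also held a TAACNG match on the other strand, beginning at -20. Mpo held GAGGAA at -247 and -224 and TAACTG at -166, with no TATAA. Ctsg held GAGGAA at -216 and CAACNG at -93 and, on the other strand, at -36, and its only TATAA match began at -236 on the other strand. No match overlapped another in these 4 windows. Of 32851 RefSeq promoter windows of this length, 28.3% held GAGGAA, 49.7% a MYB motif, 24.9% TATAA and 3.66% all 3. The C/EBP motif TTNNGNAA, present in 40.7% of windows, was not found in any of these 4. It occurred at 2 places in the window of Ms4a3 and at 1 place in each of the 2 windows listed for Plac8. TGTGGT, bound by RUNX and present in 16.8% of windows, was found in the Ctsg window and in 1 of the 2 Plac8 windows. The shares count a match at any place in a window and on either strand. The motifs had been chosen with the promoters in view, so nothing is read from how often the members held them. These are matches of letters only, and no binding was measured here.

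Mpo (probe set 1415960_at) was at 3.3 and 3.64 in SACC and control of the ES pair, and at 6.32 and 4.73 in SACC and control of the plain pair. It lay above the array's median on both plain pair arrays and below it on both ES pair arrays. The SACC array of plain medium was the highest of the 4, above 70.8% of its probe sets, against 29.8% on the SACC array of the ES pair. The ES ratio was -0.34 and the plain ratio 1.59, or 3.01-fold.

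Ctsg (probe set 1419594_at) had the same order of arrays. It was at 3.04 and 3.55 in SACC and control of the ES pair, and at 5.59 and 4.19 in SACC and control of the plain pair, so that only the SACC array of the plain pair exceeded its median. The ratios were -0.51 and 1.4 in the ES and plain pairs. The distance between the profiles of Ctsg and Mpo over the 4 arrays, each centred on its own mean, was 0.49, the smallest of the 15 pairs of members. Ctsg lies in a cluster of serine protease genes on chromosome 14, between Mcpt8 and Gzme. The basophil protease Mcpt8 had ratios of 2.36 and 0.21 in the ES and plain pairs, and the granzyme Gzme 1.38 and 0.46. Both exceeded the median only on the SACC array of the ES pair, at 5.47 and 4.61, so these ratios are uncertain.

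Elane (probe set 1422928_at) was at 3.55 and 4.09 in SACC and control of the ES pair, and at 5.55 and 5.2 in SACC and control of the plain pair. Here too both plain pair arrays lay above their medians and both ES pair arrays below. Its ratios were -0.54 and 0.35 in the ES and plain pairs. In the plain pair the SACC value was 1.27-fold the control value. Of the 6 genes it had the smallest ratio in the plain pair.

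Prtn3 (probe set 1419669_at) exceeded the median on all 4 arrays. It was at 5.82 and 4.94 in SACC and control of the ES pair, and at 8.05 and 6.2 in SACC and control of the plain pair. SACCs were higher in both pairs, with ratios of 0.88, or 1.84-fold, and 1.85, or 3.61-fold. The SACC array of the ES pair lay below the control array of the plain pair, so the groups overlapped when all 4 arrays were set together. Prtn3 and Elane, neighbours in the genome, thus differed in the ES pair in the sign of the ratio. Cfd, the next gene beyond Elane, which encodes complement factor D, had ratios of -0.31 and -0.38 and lay below the median on all 4 arrays.

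**Figure D1:**
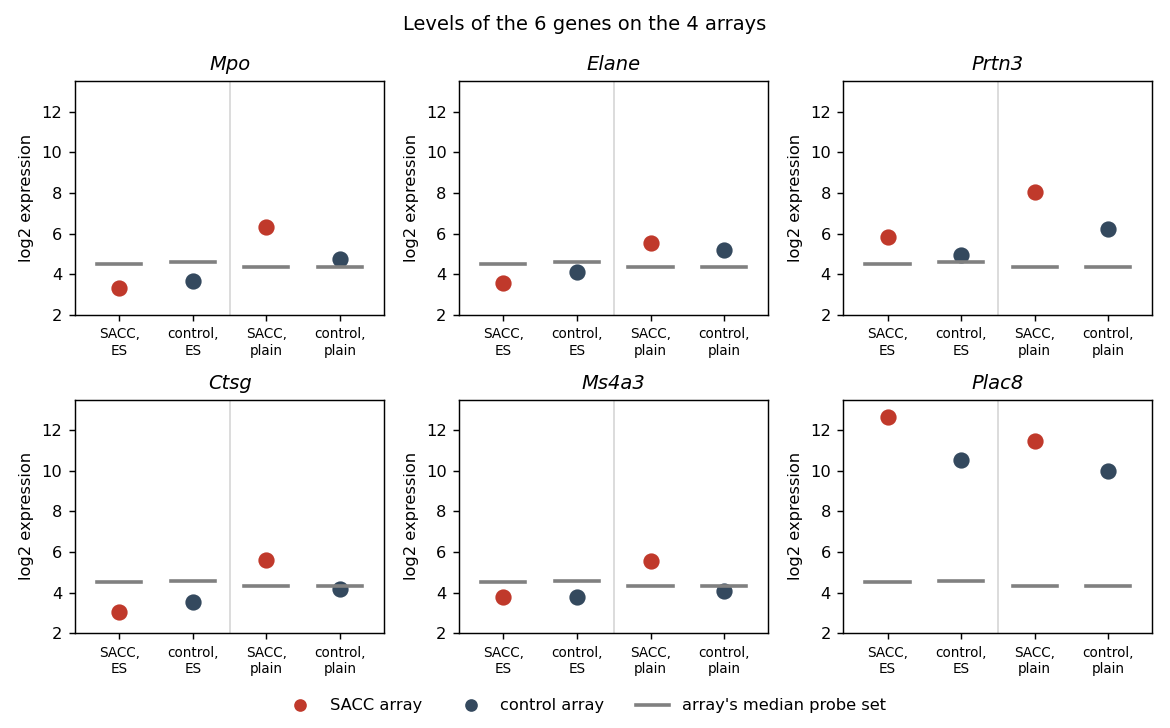
Levels of Mpo, Elane, Prtn3, Ctsg, Ms4a3 and Plac8, in log2 expression, on the SACC array (red) and the control array (dark) of the ES pair and of the plain pair; each grey bar is the median of that array. The first 5 genes sit highest on the SACC array of the plain pair, while Plac8 sits far above the median on every array and is highest on the SACC array of the ES pair, at 12.65.

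Ms4a3 (probe set 1420572_at) read 3.8 on both arrays of the ES pair, and 5.56 on the SACC array and 4.08 on the control array of the plain pair. Only the SACC array of the plain pair exceeded its median, by 1.21. The ES ratio was 0 and the plain ratio 1.48, or 2.79-fold.

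Plac8 (probe set 1451335_at) was at 12.65 and 10.51 in SACC and control of the ES pair, and at 11.45 and 9.98 in SACC and control of the plain pair. It exceeded 99.6% and 97.3% of the probe sets in SACC and control of the ES pair, and 98.9% and 96.1% in SACC and control of the plain pair. Both SACC arrays lay above both control arrays, which held for 14.2% of all probe sets and for none of the other 5 genes. The ratios were 2.14, or 4.41-fold, and 1.47, or 2.77-fold, with a mean of 1.81 ± 0.47 (SD, n = 2 pairs).

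For the others the 2 pairs differed more. The mean ratio was 0.63 ± 1.36 for Mpo, 0.45 ± 1.35 for Ctsg, 0.74 ± 1.05 for Ms4a3, -0.1 ± 0.63 for Elane and 1.37 ± 0.69 for Prtn3 (SD, n = 2 pairs). For Mpo, Ctsg, Ms4a3 and Elane the spread between pairs exceeded the mean. In the plain pair 5 of the 6 genes, all but Elane, were at least 2-fold higher in SACCs, as were 4.69% of all probe sets. The control values of Ctsg and Ms4a3 in that pair were dim, so their folds are uncertain. In the ES pair 1 of the 6, Plac8, was at least 2-fold higher, as were 4.97% of all, and none was at least 2-fold lower, as were 3.58% of all. No member was at least 2-fold lower in the plain pair, as were 3.96% of all. Mpo, Prtn3, Ctsg and Ms4a3 were at least 2-fold higher in the plain pair while within 2-fold in the ES pair, as were 2.27% of all probe sets, and Plac8 was at least 2-fold higher in both, as were 2.38%. The ratio was above 0 in both pairs for Prtn3 and Plac8, as for 27.2% of all. The member medians were -0.17 and 1.48 in the ES and plain pairs, against -0.04 and -0.02 for all probe sets. The ratios of Mpo, Elane, Ctsg and Ms4a3 in the ES pair lay inside the range from -0.74 to 0.65 that held the central 95% of the 21105 probe sets below the median on both arrays of that pair. That range is a spread over genes with 1 array per group and is no measure of replicate error. The members had been picked with these ratios known, and nothing is read from their counts.

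**Figure D2:**
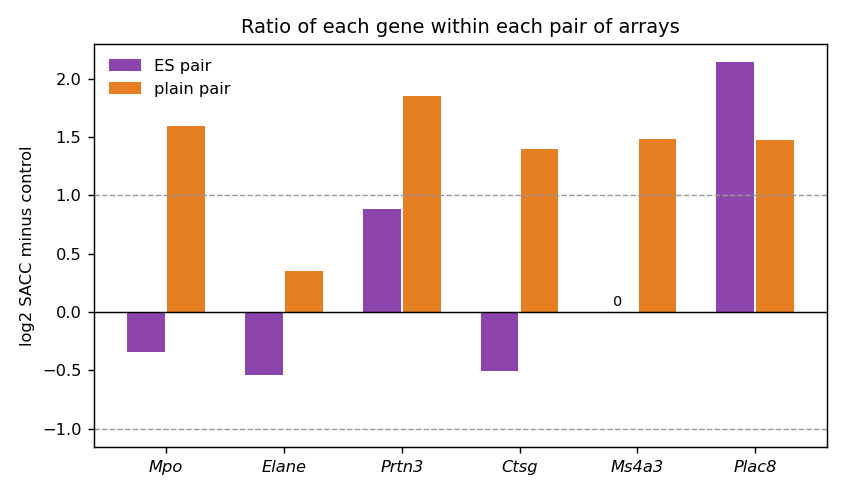
Ratio of each gene, SACC less control in log2 units, in the ES pair (purple) and the plain pair (orange), 1 array per group in each; dashed lines mark a 2-fold difference. Mpo, Elane and Ctsg have bars of opposite sign, Ms4a3 is at 0 in the ES pair, and Plac8 alone passes 2-fold in both.

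Setting the pairs side by side, both cultures of the ES pair read lower for the primary granule RNAs than both cultures of the plain pair. For SACC in ES medium minus SACC in plain medium the log2 difference was -3.02 for Mpo, -2.55 for Ctsg, -2.23 for Prtn3, -2 for Elane and -1.76 for Ms4a3, with a median of 0.17 over all probe sets. The controls, both in plain medium, differed in the same direction. Control replicate 1 minus control replicate 2 gave -1.26 for Prtn3, -1.11 for Elane, -1.09 for Mpo, -0.64 for Ctsg and -0.28 for Ms4a3, with a median of 0.2 over all probe sets. For these 5 genes both ES pair arrays lay below both plain pair arrays, as did 13.9% of all probe sets. With each array centred on its median the same 5 did so, beside 27.2% of all probe sets. Plac8 differed the other way, by 1.2 between the SACC arrays and by 0.53 between the controls. Centring moved the difference between the controls to 0.28 for Plac8 and to -0.53 for Ms4a3. The 2 tables appear to have been normalized separately, so each of these differences also holds any difference between the tables, and no replicate stands behind it.

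Between the SACC arrays these 5 genes lay near the low end of all probe sets. Of the 45037, 0.184% had a lower value than Mpo for SACC in ES medium minus SACC in plain medium, 0.364% a lower value than Ctsg, 0.557% than Prtn3, 0.766% than Elane and 1.04% than Ms4a3. For the controls the shares ranged from 3.21% for Prtn3 to 17.7% for Ms4a3. Plac8 lay near the high end for the SACC arrays, with 96.8% of all probe sets below it, and at 75.4% for the controls. The members had been chosen with the values of these arrays known, so these shares are a description and no test. Each sets 1 array against 1 array of the other table.

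**Figure D3:**
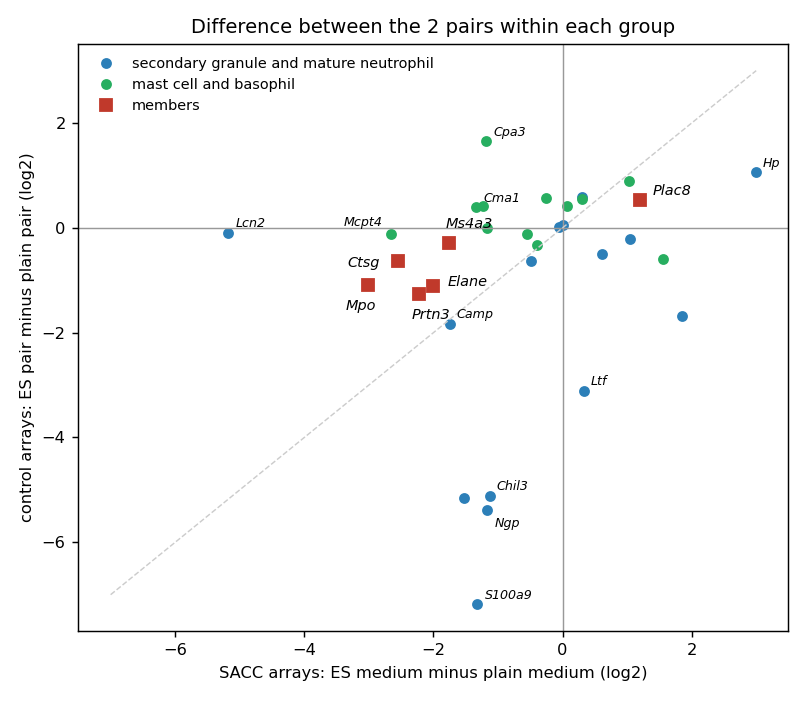
Difference between the 2 pairs on the log2 scale, for the SACC arrays (ES medium minus plain medium, horizontal axis) and the control arrays (ES pair minus plain pair, vertical axis), for the 6 genes (red squares), 15 secondary granule and mature neutrophil genes (blue) and 12 mast cell and basophil genes (green); the dashed line marks equal differences. Mpo, Ctsg, Prtn3, Elane and Ms4a3 lie at left, below 0 on both axes, while S100a9, Ngp, Chil3 and Ltf lie far down, lower mainly on the control array of the ES pair.

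Other genes of granulocyte development were then read from lists. They were tested over both pairs in limma, blocked on the pair and with p-values adjusted by Benjamini-Hochberg. At an adjusted p of 0.05 it called 1.3% of all probe sets, 0.642% as higher and 0.662% as lower in SACC. The smallest limma adjusted p was 0.0476, and no probe set passed without the block or with the arrays centred on their medians. Every rise and fall of a list gene below was therefore lost in those fits. The fits that left out 1 of the 4 arrays also dropped the block, so they cannot show what any array adds. Of 12 measured transcription factors of myeloid progenitors, none rose and 2 fell. By the signs of their ratios, 5 were higher in SACC in both pairs and 4 were lower in both. Cebpa, which is needed for granulocyte progenitors to form, fell by 2.12 ± 0.16, with limma adjusted p = 0.0476. Spi1, which encodes PU.1 and is also a factor of macrophages, fell by 2 ± 0.19, with limma adjusted p = 0.0482 (SE, n = 2 pairs). Meis1, above the median on all 4 arrays, had the list's largest mean ratio, 2.26 ± 0.25, with ratios of 1.87 and 2.65. It did not pass, with limma adjusted p = 0.0529 (SE, n = 2 pairs). The list's median ratios were -0.17 and 0.27 in the ES and plain pairs. Myb, a factor of immature blood cells, lay below the median on all 4 arrays, at 2.6 and 2.37 in SACC and control of the ES pair, and at 3.55 and 2.49 in SACC and control of the plain pair. It was highest on the SACC array of the plain pair, but its values were dim and it was named after they were seen. Of the list's other factors, Sox4 read 11.75 there and 11.74 on the SACC array of the ES pair. Its ratios were 0.91 and 1.39 in the ES and plain pairs, although 2 of its 7 probe sets had a mean ratio of the other sign. Cebpa and Spi1 were highest on the control array of the plain pair, at 9.9 and 10.43. Gfi1, a repressor required for neutrophil development, stayed between 2.11 and 2.4, also below the medians.

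Of 10 measured surface receptors of progenitors and of granulocyte growth, none rose and 4 fell. The interleukin 3 receptor subunit Csf2rb2 had a mean ratio of -2.96 ± 0.17 and the common subunit Csf2rb -2.77 ± 0.17, both with limma adjusted p = 0.0476. The complement-related receptor Cd93, found on progenitors, macrophages and endothelium, had -2.04 ± 0.17 (limma adjusted p = 0.0476), and Csf3r, the receptor for the granulocyte growth factor G-CSF, ratios of -1.54 and -1.55 (limma adjusted p = 0.0495; SE, n = 2 pairs). The list medians were -1.25 and -1.73. The progenitor antigen Cd34 was not among those passing. It had ratios of 0.65 and 1.64, from 5.87 and 5.22 in SACC and control of the ES pair and 6.84 and 5.2 in SACC and control of the plain pair. Kit, the stem cell factor receptor, had ratios of 0.19 and 0.95 and exceeded the median only on the SACC array of the plain pair, at 4.67. Csf2rb, Csf2rb2 and Cd93 are also known from macrophages. Of the macrophage list, 6 of 14 genes fell and none rose, with medians of -1.97 and -1.9. The part of macrophages in the falls of Cebpa, Spi1 and the 4 receptors was not tested.

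Proteins that activate, store or inhibit the granule proteases were measured with 10 genes, of which 1 rose and none fell. Slpi, a secreted inhibitor of elastase and cathepsin G, was the one that rose, by 2.93 ± 0.16 (SE, n = 2 pairs; limma adjusted p = 0.0476). It was at 10.57 and 7.65 in SACC and control of the ES pair, and at 10.07 and 7.14 in SACC and control of the plain pair. Ctsc, the dipeptidyl peptidase that activates these proteases, was at 11.38 or above on all 4 arrays and had ratios of -0.34 and -0.93. Srgn, the proteoglycan on which they are stored, had ratios of -1.07 and -0.71, and Serpinb1a, an intracellular inhibitor of elastase and proteinase 3, 1.33 and 0.54. These genes are active in many cells besides neutrophil precursors. The list medians were 0.33 and -0.56. None of 7 other proteins of primary granules passed, and their medians were -0.79 and -0.72. Most of the 7 are lysosomal enzymes that macrophages also make, such as Man2b1 (-1.41 and -2.02) and Gusb (-0.86 and -1.96). Prss57, Bpi and Cd63 were not measured by a probe set of their own in the data used here.

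Secondary granule and mature neutrophil genes, which follow the primary granule genes in development, were read in the same way. Of 15 measured, 1 rose and none fell, and the list medians were 1.62 and -0.41. Camp, the cathelicidin precursor, rose by 1.58 ± 0.16 (SE, n = 2 pairs; limma adjusted p = 0.0487), with ratios of 1.62 and 1.54. It was at 6.44 and 4.82 in SACC and control of the ES pair, and at 8.19 and 6.65 in SACC and control of the plain pair. Another 7 genes had a ratio above 0 in the ES pair and below 0 in the plain pair, the reverse of Mpo, Elane and Ctsg. S100a9, a calcium-binding protein of neutrophils and monocytes, was at 8.17 and 3.35 in SACC and control of the ES pair, and at 9.49 and 10.53 in SACC and control of the plain pair. Lactoferrin, Ltf, was at 5.7 and 4.78 in SACC and control of the ES pair and at 5.37 and 7.89 in those of the plain pair. Its highest array was thus the control of the plain pair, whereas Mpo was highest in SACC of that pair. The log2 of the summed level of the 15 genes was 13.68 and 13.75 on the SACC arrays and 12.64 and 13.65 on the control arrays of the ES and plain pairs. Anxa1 and Hp, which many other cells make, hold much of that sum. Without them, a choice made after seeing the data, 13 genes were left. The log2 of their sum was 11.28 and 13.11 on the SACC arrays and 9.78 and 12.38 on the control arrays. It was lower on both ES pair arrays than on both plain pair arrays, as were Mpo, Elane, Prtn3, Ctsg and Ms4a3. Lcn2, kept in it though other cells also make it, holds much of the 13.11. Which plain pair array is the higher is therefore not read from this sum. The part of mature neutrophils in the members' values was not tested. Lcn2, a granule protein that stromal cells and macrophages also make, was highest on the SACC array of the plain pair, at 12.49, against 8.55 on its control.

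**Figure D4:**
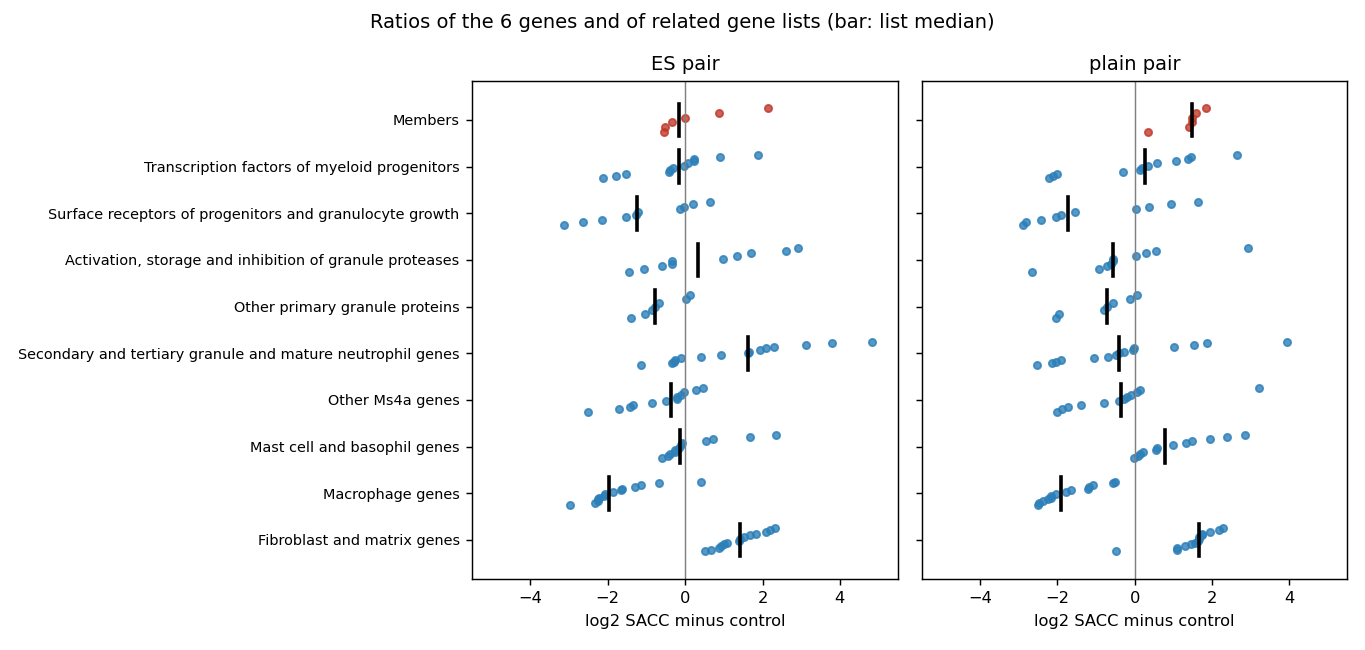
Ratios (SACC less control in log2 units, horizontal axis) of the 6 members (red) and of genes in 9 related lists (blue) in the ES pair (left) and the plain pair (right), 1 point per gene, with the list median as a black bar. The member medians lie at -0.17 and 1.48 in the ES and plain pairs, and secondary granule and mature neutrophil genes have medians of 1.62 and -0.41.

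Markers of other blood cells were read beside these values, since related proteases are made by other cells. Of 12 genes of mast cells and basophils none passed. Their medians were -0.14 and 0.79, and 7 of 12 had a ratio below 0 in the ES pair and above 0 in the plain pair, as did 18.3% of all probe sets and Mpo, Elane and Ctsg. For the level in the ES pair minus that in the plain pair, the list medians were -0.475 for the SACC arrays and 0.4 for the controls. Both ES pair arrays lay below both plain pair arrays for 2 of the 12, beside 13.9% of all probe sets. The mast cell protease Mcpt4, encoded near Ctsg on chromosome 14, was at 2.74 and 3.35 in SACC and control of the ES pair, and at 5.4 and 3.46 in SACC and control of the plain pair. Mast cell carboxypeptidase, Cpa3, had ratios of -0.44 and 2.39, and the chymase Cma1 -0.4 and 1.33. Another 4 of the 12 were higher in SACC in both pairs, the protease Mcpt2 (1.67 and 2.84), Mcpt8, the transcription factor Gata2 (0.72 and 0.58) and Fcer1a, a chain of the high-affinity IgE receptor (0.55 and 0.99). The log2 of the summed level of the 12 genes was 8.93 and 9.14 on the SACC arrays and 8.51 and 7.87 on the control arrays of the ES and plain pairs. Below the median on all 4 arrays were 4 of 12, Fcer1a, Mcpt1, Tpsab1 and Ms4a2. All of these but Fcer1a are among the 7 with ratios of opposite sign, so those signs are uncertain. The part of mast cells in the values of Ctsg or of the other members was not tested.

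Granzyme and cytotoxic granule genes had medians of -0.05 and -0.01, and 7 of 9 were below the median on every array. Eosinophil genes had medians of 0.06 and -0.45, with 5 of 7 below the median on every array. Epx, the eosinophil peroxidase gene close to Mpo on chromosome 11, stayed between 2.32 and 2.75, below the median throughout. Lymphocyte genes had medians of -0.2 and -0.04, erythroid and megakaryocyte genes -0.4 and -0.15, and endothelial genes 0.67 and -0.15. No gene of these 5 lists passed. In the lymphocyte list Ighm, the immunoglobulin heavy chain of IgM, was at 6.64 and 8.98 in SACC and control of the ES pair, and at 11.12 and 10.47 in SACC and control of the plain pair. It had the array order of Mpo, Elane and Ctsg, although 2 of its 7 probe sets had a mean ratio of the other sign. The part of B cells or plasma cells in the members' values was not tested.

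Of 10 monocyte genes, with medians of -0.94 and -0.97, 1 rose. It was Vcan, a matrix proteoglycan that fibroblasts also make. Fibroblast and matrix genes had medians of 1.41 and 1.66, and 4 of 14 rose. Plasmacytoid dendritic cell genes, a cell type in which Plac8 is also abundant, had medians of -0.3 and -0.04. Lair1, an inhibitory collagen receptor of many leukocytes, was the 1 of 10 that fell. Siglech, a marker of those cells, lay between 4.16 and 4.5 and exceeded its array's median only in the plain pair.

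The family of Ms4a3 was read beside it. Of 12 other Ms4a genes measured, none rose and 1 fell, Ms4a6d, with ratios of -1.72 and -1.88. The family medians were -0.36 and -0.35, against 0 and 1.48 for Ms4a3. Several members of the family, such as Ms4a7 (-2.51 and -1.39), are known from macrophages. Ms4a4d had ratios of 0.46 and 3.21 and lies near Ms4a3 in the genome. It was at 9.91 and 9.45 in SACC and control of the ES pair, and at 9.93 and 6.72 in those of the plain pair. The control of the plain pair was thus its lowest array, whereas Ms4a3 stood out by its high value in SACC of that pair. Ms4a2, the neighbour of Ms4a3 and a chain of the high-affinity IgE receptor, was below the median on all 4 arrays.

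Genes of like pattern were found by their distance from the members' mean profile over the 4 arrays. Each value was taken less its array's median and centred per gene. The search covered 12288 genes above the median on at least 1 array. Predicted genes, clone names, small RNAs, olfactory and vomeronasal receptors and antigen receptor segments had been left out. The 10 nearest were Vipr2 (distance 0.33), Penk (0.35), Socs2 (0.38), Bcam (0.39), Kcnk10 (0.41), Efna4 (0.41), Asgr1 (0.41), Slc20a1 (0.42), Agt (0.42) and Nqo1 (0.42). Of the members themselves Ms4a3 was nearest to that profile (0.27) and Plac8 farthest (2.44). Plac8 pulls the mean profile, so the search was also made without it, a choice made after its values were seen. The nearest genes to the mean of the other 5 were then Bdkrb1 (0.21), Rbp4 (0.24), Shc2 (0.31), Dio2 (0.35) and Penk (0.39), and Mcpt4 was the ninth, at 0.6. Bdkrb1, a bradykinin receptor, was at 5.28 and 5.35 in SACC and control of the ES pair, and at 7.83 and 6.28 in SACC and control of the plain pair. Vipr2, Kcnk10, Asgr1, Agt, Rbp4 and Mcpt4 exceeded the median only on the SACC array of the plain pair. They entered the search through that array alone, and their other values were dim. These distances rest on 4 arrays and are a description.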

How the data were processed

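Biotin-labelled cRNA from total RNA of 2 SACC and 2 control samples was hybridised to Affymetrix arrays, per the labels' protocols. The authors deposited log2 expression values in 2 tables, each with 1 SACC and 1 control array. The submitters' processing notes list Transcriptome Analysis Console. How probe sets were summarised, normalized and annotated, and the build, is not given in the sources used here. Sorted values of 2 arrays differed by at most 0.14 and 0.2 within a table, and by 0.28 between tables, so the tables appear normalized separately. The authors' table of all 4 arrays held the same values. Precision is limited by the number of arrays. Arrays of a pair or a group correlated with Pearson's r of 0.959 to 0.972 over probe sets, and none was a duplicate.

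The labels gave groups, media and, in the control samples' descriptions, the pairs; with 2 pairs the pairing was not checked on the values. Members and lists were chosen with earlier results of these data known, and the motifs also with the promoters in view. Only the 36109 probe sets with a single symbol were named, and of several for a gene the brightest was taken. The 16 lists had 191 entries, of which 171 were measured. Up to 4 genes of a list with the largest mean ratio could be named. Myb, Gfi1, Sox4, Kit, Cd34, Csf3r, Ctsc, Ltf, Ngp, Chil3 and Lcn2 were named after their values were seen. So were Mcpt1, Mcpt4, Cma1, Tpsab1, Gata2, Anxa1, Siglech and genes beside a member in the genome. List genes were tested with lmFit and eBayes of limma 3.58.1 in R 4.3.3, fitting group and pair and adjusting by Benjamini-Hochberg over 45037 unfiltered probe sets; an SE is limma's moderated one. The fit had 1 residual degree of freedom. Promoters were matched by symbol for all 6 members.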

Additional observations from a re-analysis of the deposited data

Results flagged for a closer look

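Ratios of opposite sign in the ES and plain pairs, each with 1 array per group, were found for 3 genes, and the difference was not tested. For Mpo they were -0.34 and 1.59, a difference of -1.93. For Ctsg they were -0.51 and 1.4, a difference of -1.91. For Elane they were -0.54 and 0.35, a difference of -0.89. In the ES pair both values of each of these genes lay below the array's median.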

How the results depend on the processing

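Of 24 member values, ratios within a pair and level differences between pairs, none turned to the opposite sign with each array centred on its median or with quantile normalization over the 4 arrays; the ES ratio of Ms4a3, which was 0, became 0.07 and 0.0975. The largest move was 0.113 for a ratio and 0.27 for a level difference. Without Plac8, a choice made after seeing the data, the member medians were -0.34 and 1.48 in the ES and plain pairs, against -0.17 and 1.48 with it. The limma count over both pairs, 587 probe sets, depended on the fit. Without the replicate block, that is without the pairing, it was 0 (lowest adjusted p 0.16, and 3497 at an unadjusted p under 0.05), and with each array centred on its median 0 (0.0636, 7405 unadjusted). It was 2045 with quantile normalization, 1326 when dimmer probe sets, below the median one, were left out, 898 with a trend and 2623 with robust eBayes. Leaving out 1 array at a time, with no block, gave 0 probe sets each time, with 2264 to 3535 at an unadjusted p under 0.05; the lone array of a group was then assumed to vary like the others. The cause of these changes was not tested. Dim values limit the members in the ES pair, where only Prtn3 and Plac8 exceeded the array's median. In the plain pair they limit Ctsg and Ms4a3, whose control values lay below the array's median.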
